A study of Schizosaccharomyces pombe with 4 samples.

Results

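The 10 genes described here encode actin and proteins that build or contract the cytokinetic ring of the fission yeast *Schizosaccharomyces pombe*. They were chosen by name from the deposited table as *act1*, *cdc3*, *adf1*, *cdc8*, *cdc12*, *myo2*, *cdc4*, *rlc1*, *mid1* and *cdc15*, and are 10 of its 5129 protein-coding genes. *act1*, which encodes actin, serves as the reference for the other 9. NET-Seq sequences the RNA that is still held by transcribing RNAPII. All 4 libraries came from strain YAM2507, which lacks *exo2* and expresses the RNAPII subunit Rpb3 with a Flag tag. The nascent (IP) libraries, 2 in number, were made from RNA that was purified with RNAPII. The total (input) libraries, also 2, were made from the same biological samples without this purification, so that replicate 1 of the IP belongs with replicate 1 of the input. No library of cells with an intact *exo2* was analysed here, so the values describe *exo2*Δ cells only and not an effect of the deletion.

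In fission yeast, cell division depends on a ring of actin filaments and myosin that assembles at the cell middle and then constricts while the septum is laid down behind it. The anillin-like protein Mid1 marks the division site, the formin Cdc12 nucleates actin filaments with the help of profilin, and the type II myosin Myo2 pulls on them together with its light chains. Exo2 is the cytoplasmic 5′ to 3′ exoribonuclease that degrades XUTs, long non-coding RNAs that accumulate when the enzyme is missing and often lie antisense to genes (asXUTs).

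The gene structures bear on the measurements that follow, because 5 of the 10 genes have introns close behind the start codon. In the annotation, the first coding segment is 13 nt long in *cdc3*, 3 nt in *adf1*, 18 nt in *cdc8*, 31 nt in *cdc4* and 81 nt in *cdc15*. The stretches below run 5′ to 3′ from the start codon through the first intron to the first 9 nt of the second coding segment, and are shown because these segments are set against the rest of their genes further on. Coding bases are in capitals and intron bases in lower case. The sequences are from the RefSeq genome ASM294v3, at chrI:2579408-2579478 (minus strand) for *cdc3*, chrI:4826015-4826077 (minus strand) for *adf1*, chrI:4320119-4320204 (minus strand) for *cdc8*, chrI:5329218-5329309 (plus strand) for *cdc4* and chrI:1402739-1402886 (minus strand) for *cdc15*.
cdc3: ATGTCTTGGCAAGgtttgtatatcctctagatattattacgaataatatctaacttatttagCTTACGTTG
adf1: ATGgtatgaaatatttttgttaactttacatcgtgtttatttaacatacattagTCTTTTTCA
cdc8: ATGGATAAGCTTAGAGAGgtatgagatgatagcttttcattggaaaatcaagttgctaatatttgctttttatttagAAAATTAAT
cdc4: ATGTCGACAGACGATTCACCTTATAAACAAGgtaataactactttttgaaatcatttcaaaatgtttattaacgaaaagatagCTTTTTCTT
cdc15: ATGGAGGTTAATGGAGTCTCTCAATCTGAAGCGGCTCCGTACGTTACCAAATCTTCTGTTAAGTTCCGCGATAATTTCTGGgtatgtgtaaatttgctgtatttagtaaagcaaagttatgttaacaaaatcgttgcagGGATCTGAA

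Of these 5 introns, 4 open with GTA, as do 92.5% of 5025 annotated introns between coding segments, and that of *cdc3* opens with GTT. The letters CTAAC, searched on the coding strand as printed above, occur in the first intron of *cdc3* and in 45.2% of all introns. A match is a description of the letters only.

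The values are the authors' normalized reads, and a density is the normalized reads divided by the gene length in nt. A single read counts for 1 and 0.474 normalized reads in the IP and for 0.318 and 0.357 in the input (replicates 1 and 2 in each case). The annotated features hold 3338808 and 6962801 reads in the IP and 10172688 and 9114952 in the input. tRNA genes take 7.18% and 6.80% of the IP and 73.9% and 75.0% of the input, and the median read number of protein-coding genes was 172 and 356 in the IP and 102 and 78 in the input. The main coding segment of the deleted *exo2* had densities of 0.0113 and 0.0104 in the IP, in normalized reads per nt. Outside all coding segments of that gene the IP densities were 0.159 and 0.143. Poisson intervals below are exact, at 95%, and cover counting error only, since copies of the same molecule cannot be told apart.

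The genes for actin, profilin, cofilin and tropomyosin were the most densely transcribed of the 10. *act1* (SPBC32H8.12c; chromosome II, 1475485 to 1477317, minus strand) had densities of 2.35 and 2.31 in the IP, in normalized reads per nt, from 4302 and 8950 reads, and 0.750 and 0.651 in the input, from 4319 and 3347 reads. It ranked 30 by nascent and 50 by total density among all protein-coding genes. *cdc3* (SPAC4A8.15c; chromosome I, 2578956 to 2579514, minus strand), which encodes profilin, the protein that binds actin monomers and delivers them to formins, had densities of 0.519 and 0.465 in the IP and 0.133 and 0.114 in the input. *adf1* (SPAC20G4.06c; chromosome I, 4825257 to 4826099, minus strand) encodes cofilin, which severs actin filaments. Its density was 0.467 and 0.395 in the IP and 0.154 and 0.173 in the input. *cdc8* (SPAC27F1.02c; chromosome I, 4319247 to 4320285, minus strand) encodes tropomyosin, which lies along the filaments, and had 0.453 and 0.390 in the IP and 0.0995 and 0.107 in the input. In the IP, *adf1* overlapped both *cdc3* and *cdc8*, while *cdc3* lay above *cdc8*, and in the input *adf1* lay above *cdc3* and *cdc3* above *cdc8* without overlap.

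The genes for the formin and the myosin lay far lower, near the median protein-coding gene, whose density was 0.0866 and 0.0835 in the IP and 0.0162 and 0.0140 in the input. *cdc12* (SPAC1F5.04c; chromosome I, 283287 to 289200, plus strand), the formin gene, had 0.0801 and 0.0688 in the IP and 0.0140 and 0.0153 in the input. *myo2* (SPCC645.05c; chromosome III, 1233231 to 1238262, minus strand), which encodes the myosin II heavy chain, had 0.0803 and 0.0789 in the IP and 0.0183 and 0.0147 in the input. The light chains of this motor were transcribed above the heavy chain. *cdc4* (SPAP8A3.08; chromosome I, 5329177 to 5331057, plus strand), the essential light chain, had 0.116 and 0.124 in the IP and 0.0244 and 0.0229 in the input. *rlc1* (SPAC926.03; chromosome I, 3887243 to 3888497, plus strand), the regulatory light chain, had 0.108 and 0.119 in the IP and 0.0175 and 0.0162 in the input. In both kinds of library, *cdc4* lay above *myo2* without overlap, and *rlc1* did so in the IP only. *rlc1* rests on the fewest reads of the 10 genes, 135 and 315 in the IP and 69 (Poisson interval 53.7 to 87.3) and 57 (43.2 to 73.9) in the input.

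The genes for the proteins that place and scaffold the ring were in the same range. *mid1* (SPCC4B3.15; chromosome III, 1147316 to 1151324, minus strand), the anillin-like organizer, had densities of 0.118 and 0.113 in the IP and 0.0210 and 0.0170 in the input. *cdc15* (SPAC20G8.05c; chromosome I, 1399200 to 1402965, minus strand), which encodes the F-BAR protein that joins the ring to the plasma membrane, had 0.0982 and 0.102 in the IP and 0.0155 and 0.0160 in the input. Both lay above the median protein-coding gene in both IP replicates.

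Set out from high to low, the nascent densities had *act1* on top, then *cdc3*, *adf1* and *cdc8*, then *cdc4*, *mid1* and *rlc1*, then *cdc15*, and then *myo2* and *cdc12*. Within each of these groups neighbours overlapped between replicates, and between the groups they did not. All densities here are over the whole annotated gene, and the order over coding bases can differ. In *cdc4*, 1455 nt lie outside the coding segments, at an IP density of 0.246 and 0.288 times that of its coding bases. The same values were 0.660 and 0.726 in *mid1* and 0.673 and 0.564 in *rlc1*. By total density the order was *act1*, *adf1*, *cdc3*, *cdc8* and *cdc4*, each apart from the next, then *mid1*, *rlc1*, *myo2* and *cdc15*, whose neighbours overlapped, and last *cdc12*. As a share of the *act1* density in the same library, *cdc3* was 22.1% and 20.1% in the IP and 17.7% and 17.5% in the input. *adf1* ran the other way, with 19.9% and 17.1% in the IP and 20.5% and 26.5% in the input. *cdc12* had the smallest shares in 3 of the 4 libraries, at 3.41% and 2.97% in the IP and 1.87% and 2.34% in the input, the exception being input replicate 2, where *myo2* was at 2.25%. The median of the 9 genes was 4.96% of *act1* in the IP (mean of the replicates).

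**Figure D1:**
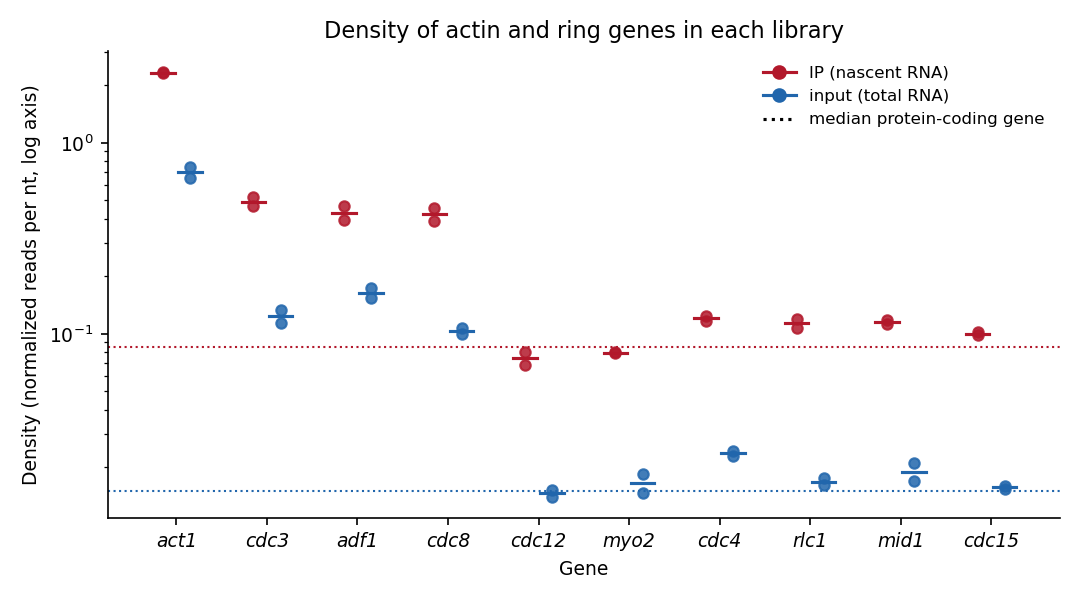
Density of each gene in each library, in normalized reads per nt on a log axis, with IP (nascent RNA) left of input (total RNA). Points are the 2 replicates, short bars their means and dotted lines the median protein-coding gene; *act1* stands at 2.35 and 2.31 in the IP, 4.52-fold and 4.98-fold above *cdc3*, the next gene.

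On the deposited scale, all 10 genes were higher in the IP than in the input, in both replicates and without overlap. The test was limma, which borrows the spread between replicates from all features, with a trend by level, and a gene was called at a Benjamini-Hochberg adjusted p under 0.05. The adjusted p was 2.61e-05 or less for each of the 10. Of all 8651 features tested, 91.6% were called higher in the same comparison, so this count is close to the background. The log2 IP over input was 1.74 for *act1*, 1.99 for *cdc3*, 1.40 for *adf1*, 2.03 for *cdc8*, 2.34 for *cdc12*, 2.27 for *myo2*, 2.34 for *cdc4*, 2.73 for *rlc1*, 2.61 for *mid1* and 2.66 for *cdc15*. Their median was 2.31, beside 2.38 for protein-coding genes and 2.41 for all features. The direction is set by the scale. The deposited factors bring the libraries to similar totals, with tRNA taking most of the input. On scales that bring protein-coding genes level, 7 of the 10 genes have a ratio below 0, the exceptions being *rlc1*, *mid1* and *cdc15*.

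Relative to the other protein-coding genes, the genes for actin, profilin, cofilin and tropomyosin had less nascent RNA for their total RNA, and the genes of the motor, the formin and the scaffold were not told apart from the median. For this comparison, the median log2 value of protein-coding genes was subtracted from each library, after which the median protein-coding gene had a log2 ratio of -0.09. *adf1* was lowest, with a log2 IP over input of -1.08 (SE 0.138, adjusted p = 0.000315, limma), and -0.78 and -1.38 in replicates 1 and 2. *act1* followed with -0.74 (SE 0.105, adjusted p = 0.000615, limma), and -0.73 and -0.75 in the replicates. Cofilin and actin thus lay at percentiles 3.05 and 8.82 of the ratios of 5043 protein-coding genes. *cdc3* had -0.49 (SE 0.106, adjusted p = 0.00791, limma), with -0.41 and -0.56 in the replicates. *cdc8* had -0.45 (SE 0.127, adjusted p = 0.0269, limma), with -0.19 and -0.71. These were at percentiles 18.6 and 20.5.

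The values of the other 6 genes were not past the threshold. They were -0.14 for *cdc12*, -0.20 for *myo2*, -0.14 for *cdc4*, 0.25 for *rlc1*, 0.13 for *mid1* and 0.19 for *cdc15*, with standard errors of 0.097 to 0.147 and adjusted p from 0.165 to 0.485 (limma). *rlc1* was the highest of the 10, with a percentile of 76.6 among protein-coding genes. In all, 4 of 10 genes were called lower, beside 21.4% of protein-coding genes and 16.4% of all features. None (0 of 10) was called higher, at an unadjusted p under 0.05 also 0, beside 10.4% of protein-coding genes and 9.58% of all features. edgeR's quasi-likelihood test with TMM factors on the recovered reads called the same 4 genes lower and 0 higher.

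The calls rest on how the spread was modelled. Where limma's prior spread did not follow the level of the gene, 0 of the 10 genes were called, with adjusted p of 0.0719 for *adf1*, 0.0592 for *act1*, 0.113 for *cdc3* and 0.207 for *cdc8*, although 3 were lower at an unadjusted p under 0.05. The call of *cdc8* was also lost without input replicate 2 (log2 ratio -0.29, adjusted p = 0.121, limma).

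The level of a gene moved with this ratio across all genes. Spearman's rho over 5043 protein-coding genes was -0.489 between total density and the log2 ratio and -0.253 between nascent density and the log2 ratio. Genes are not independent replicates, and each density is also a part of the ratio. The 4 genes called lower are the 4 with the highest total densities among the 10. The part of the level in their ratios was not tested.

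Set against *act1* in the same library, the motor, formin and scaffold genes had more nascent RNA for their total RNA than actin. The log2 IP over input relative to *act1* was 0.60 for *cdc12* (SE 0.129, adjusted p = 0.00327), 0.54 for *myo2* (SE 0.099, adjusted p = 0.00147) and 0.60 for *cdc4* (SE 0.117, adjusted p = 0.00191), all from limma. It was 0.99 for *rlc1* (SE 0.145, adjusted p = 0.000422), 0.87 for *mid1* (SE 0.098, adjusted p = 0.000103) and 0.93 for *cdc15* (SE 0.116, adjusted p = 0.000186), again from limma. Thus 6 of 9 genes were called higher than *act1*. On the same scale 70.4% of protein-coding genes and 54.1% of all features were called higher, so that this count is close to the background.

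Profilin, tropomyosin and cofilin were not called apart from actin in the main fit, which leaves out the pairing. *cdc3* had 0.25 relative to *act1* (SE 0.106, adjusted p = 0.0645, limma), *cdc8* had 0.29 (SE 0.125, adjusted p = 0.0727, limma) and *adf1* had -0.34 (SE 0.136, adjusted p = 0.0549, limma). With the replicate number as a block, which fits the pairing of the libraries, all 3 passed the threshold, at adjusted p of 0.0433 for *cdc3*, 0.0217 for *cdc8* and 0.00887 for *adf1* (limma). *cdc3*, at 0.32 and 0.19, and *cdc8*, at 0.54 and 0.037, were above *act1* in both replicates, and *adf1*, at -0.043 and -0.64, below it in both. Some other fits without the pairing also called *adf1* or *cdc8*. edgeR with library sizes set to *act1* gave adjusted p of 0.0308 for *adf1*, 0.0498 for *cdc8* and 0.0505 for *cdc3*. For *adf1*, limma gave adjusted p of 0.0258 (pseudocount 10 times larger) and 0.0458 (at least 10 reads in 2 or more libraries). The replicate block was the only setting that called *cdc3*, whose log2 ratio ranged over 0.18 to 0.33 in the alternatives. The values of *cdc8* and *adf1* depend on single libraries. Without IP replicate 1, *cdc8* was at 0.19 and *adf1* at -0.45 (adjusted p of 0.253 and 0.00282, limma). Without IP replicate 2, *cdc8* was at 0.39 and *adf1* at -0.23 (adjusted p of 0.0123 and 0.145, limma). Without input replicate 1, *cdc8* was at 0.14 and *adf1* at -0.53 (adjusted p of 0.401 and 0.000979, limma). Without input replicate 2, *cdc8* was at 0.44 and *adf1* at -0.15 (adjusted p of 0.00528 and 0.343, limma). For *cdc12*, the call was lost without the trend in the spread (adjusted p = 0.0726, limma).

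**Figure D2:**
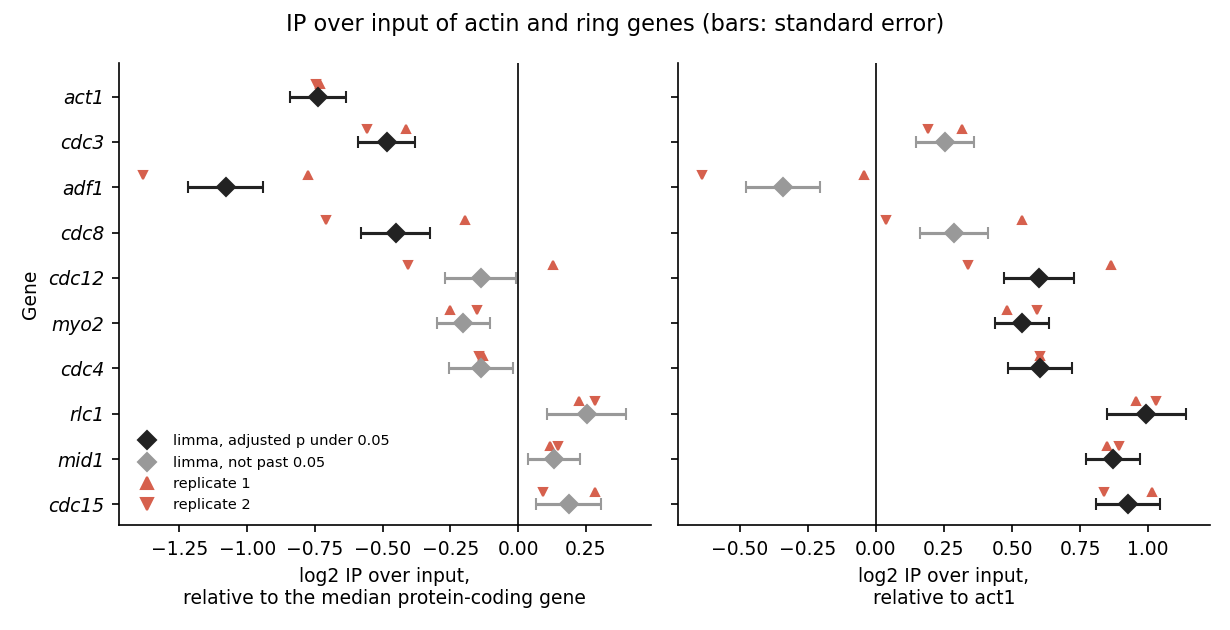
Log2 IP over input of each gene relative to the median protein-coding gene (left) and to *act1* (right). Diamonds are limma estimates with standard errors, black where the adjusted p is under 0.05, and triangles the 2 replicates; *adf1* at -1.08 and *act1* at -0.74 are lowest on the left, and *rlc1*, *mid1* and *cdc15* lie at 0.87 to 0.99 on the right.

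Within some of the intron-containing genes, nascent and total RNA were spread differently over the coding segments. The widest gap in log2 IP over input between the first and second segments was in *cdc8*, the tropomyosin gene. The 18 nt first segment of *cdc8*, shown in capitals above, held 61 and 93 reads in the IP, or 3.39 and 2.45 normalized reads for each nt, and 5 and 10 reads in the input, or 0.0884 and 0.198. Its log2 IP over input was 5.01 and 3.51 in the replicates, against 1.86 and 1.84 for the 468 nt second segment. The first segment of *cdc15*, 81 nt long, held 41 and 82 reads in the IP and 4 and 6 in the input, with a log2 ratio of 4.70 and 3.99. That ratio was 3.12 and 4.17 in the second segment of *cdc15*, 2.24 and 2.33 in the third, which makes up most of its coding length at 2438 nt, and 3.27 and 2.50 in the last. For cofilin, the first segment is the start codon alone, with 8 and 11 reads in the IP and 1 and 1 in the input. These intervals are wide, with an upper Poisson limit of 5.57 reads for each input of *adf1*.

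Profilin did not follow this pattern. The 13 nt first segment of *cdc3* had 16 and 18 reads in the IP and 10 and 7 in the input, and its log2 ratio of 2.22 and 1.65 had a mean of 1.94, beside 1.93 and 2.21 for its other coding segments. In *cdc4* the first segment had 18 and 40 reads in the IP and 9 and 9 in the input, with a log2 ratio of 2.53 and 2.45. The mean log2 ratios of its following segments were 1.69, 2.44, 2.70 and 1.15, so that the first segment of the light chain gene did not stand apart.

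Short first segments had a high nascent density in many genes. Only segments of genes with at least 20 reads on coding bases in each of the 4 libraries were counted. Relative to all coding bases of the same gene, the IP density of 177 first segments of 1 to 20 nt had a median of 6.74, against 1.75 in the input. That of *cdc8* was 5.68 and 4.75 in the IP replicates, at percentile 37.3 of these 177, that of *adf1* was 3.89 and 2.98, at percentile 21.5, and that of *cdc3* was 1.74 and 1.09, at percentile 2.26. The relative density of the *cdc8* and *adf1* first segments was thus lower than that of the median segment of their class, and *cdc3* was near the bottom. Among 732 first segments of 21 to 100 nt, with medians of 2.06 in the IP and 1.20 in the input, *cdc15* had 4.53 and 4.19 in the IP, at percentile 86.7, and *cdc4* had 2.08 and 2.21, at percentile 52.2. Internal segments of 1 to 20 nt, of which there were 41, had a median relative density of 1.33 in the IP and 0 in the input. The part of spliced reads that the alignment does not place in the input of short segments was not tested.

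**Figure D3:**
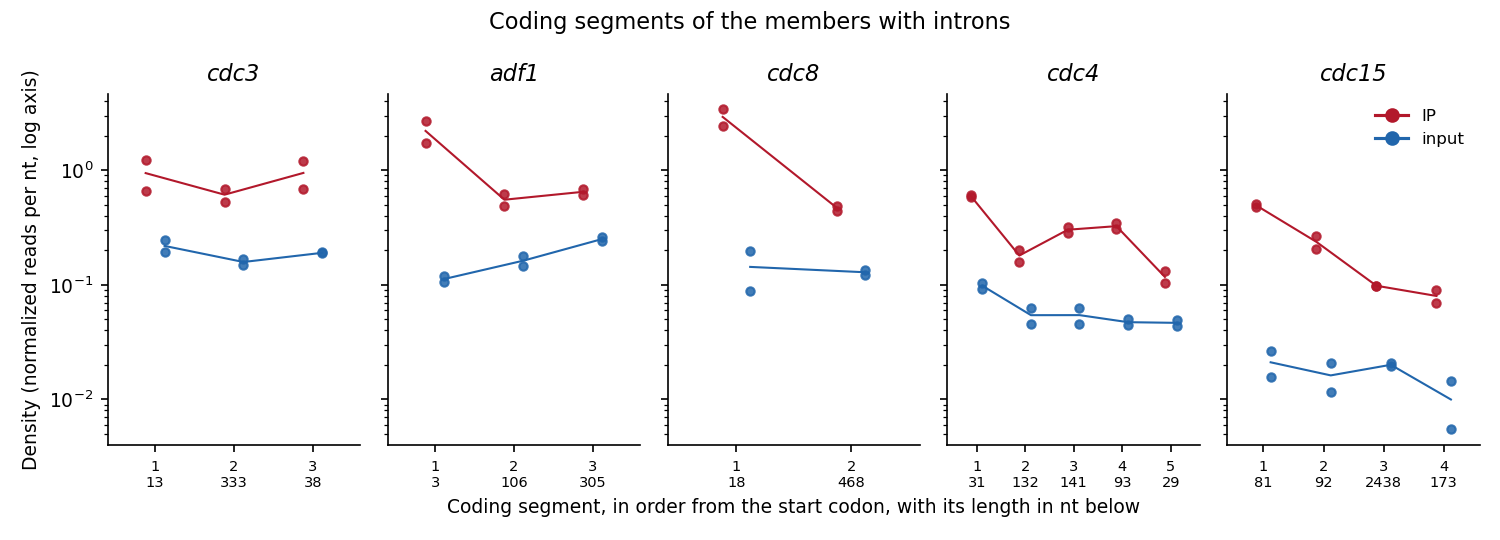
Density of each coding segment of the 5 genes with introns, in normalized reads per nt on a log axis, against the number of the segment from the start codon, with its length in nt below it. Points are the 2 replicates of each kind of library and lines join their means; in *cdc8* the first segment stands at 3.39 and 2.45 in the IP and the second at 0.489 and 0.442, while the input of both segments lies between 0.0884 and 0.198.

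Outside the coding segments, which takes in the transcribed ends and any introns, *myo2*, *cdc15* and *mid1* had a larger share of their nascent than of their total RNA in both replicates. In *myo2*, the 451 nt outside the coding segment held 47 and 99 reads in the IP and 9 and 8 in the input, with a log2 ratio of 3.89 and 3.90, against 1.99 and 2.30 in the coding segment. Those of *cdc15*, 982 nt, held 59 and 139 reads in the IP and 12 and 20 in the input, with a log2 ratio of 3.84 and 3.15. For *mid1* the share was 22.9% and 24.7% in the IP and 20.8% and 13.6% in the input, where the part outside the coding segment includes the stretch shared with *cwf20*. In *cdc4* the shares were nearly equal, at 45.7% and 49.6% in the IP and 44.4% and 49.6% in the input. In *act1* the share was also larger in the IP, at 33.8% and 36.7% against 29.5% and 34.5%, with the parts closer together. Its 705 nt outside the coding segment had a log2 ratio of 1.84 and 1.92, against 1.56 and 1.78 in the coding segment. *cdc12* went the other way, at 1.74 and 1.55 outside and 2.55 and 2.19 in the coding segment, on 22 and 30 reads in the IP and 20 and 13 in the input. *adf1* also had a smaller share outside its coding segments in the IP, with 27.9% and 27.4% in the IP and 28.5% and 34.3% in the input. These differences between parts of a gene were not tested.

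By the gene boundaries of the table, antisense XUTs lay opposite 3 of the 10 genes, the formin gene *cdc12*, the organizer gene *mid1* and the F-BAR gene *cdc15*, over 50 nt or more. By the RefSeq boundaries, an alternative chosen after the data were seen, it was 2 of 10, since the shorter *mid1* there does not overlap a XUT. Among all protein-coding genes 1086 of 5129, or 21.2%, have an asXUT, so that this share is near the background. *act1* has none by either annotation. Its only opposite features, 2 unnamed non-coding units, had 0 and 1 reads each in the IP and 0 and 0 in the input, beside 4302 and 8950 IP reads on the sense strand. The 4 densely transcribed genes, *act1*, *cdc3*, *adf1* and *cdc8*, all lack an asXUT, and so do *cdc4*, *myo2* and *rlc1*, which were transcribed less densely.

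*XUT0468* covers the end of *cdc12*, from nt 4164 to nt 5914 of the gene, and 1552 nt of this lie opposite the coding segment. It had 22 (Poisson interval 13.8 to 33.3) and 30 (20.2 to 42.8) reads in the IP and 6 and 3 in the input. *cdc12* itself was 6.59-fold and 8.75-fold denser than *XUT0468* in the IP and 13.3-fold and 25.8-fold denser in the input. An unnamed non-coding unit of 430 nt lies within *XUT0468* on the same strand, with 10 and 12 reads in the IP and 1 and 1 in the input. Another, of 317 nt, lies opposite nt 136 to 452 of *cdc12*, with 0 and 1 reads in the IP and 1 and 1 in the input. *XUT1370* faces the last 353 nt of *cdc15*, all outside the coding segments, with 13 and 30 reads in the IP and 4 and 9 in the input. *XUT1371*, 224 nt long, lies wholly opposite coding sequence, from nt 2512 to nt 2735 of *cdc15*, with 5 and 8 reads in the IP and 2 and 0 in the input. A count of 0 reads allows up to 3.69 by its Poisson interval. *cdc15* was 4.18-fold and 3.97-fold denser than *XUT1370*, and 4.40-fold and 6.03-fold denser than *XUT1371*, in the IP. All 3 XUTs were therefore below their genes in both IP replicates.

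*XUT0863* lies opposite the first 598 nt of *mid1* as annotated in the table, none of it coding. On the minus strand, the start of *mid1* is at 1151324 in the table and at 1150435 in RefSeq, while *XUT0863* runs from 1150727 to 1151906, so that by RefSeq it lies wholly upstream of *mid1*. It had 10 (Poisson interval 4.80 to 18.4) and 29 (19.4 to 41.6) reads in the IP and 7 and 7 in the input, and *mid1* was 14.0-fold and 9.67-fold denser in the IP and 11.1-fold and 8.03-fold denser in the input. The stretch that the table adds to *mid1* also overlaps *cwf20*, a gene on the same strand, by 556 nt. The reads on *cwf20* amounted to 18.5% and 20.8% of those on *mid1* in the IP and 13.3% and 12.6% in the input, and reads on the shared stretch belong to both counts. By nascent density, *XUT1370* and *XUT1371* were at percentiles 83.5 and 78.3 of the 1638 XUTs, and *XUT0468* and *XUT0863* at 55.4 and 55.7. Relative to the median protein-coding gene, the log2 IP over input of the 4 XUTs was 0.88, -0.31, 0.08 and 0.61 for *XUT0468*, *XUT0863*, *XUT1370* and *XUT1371*, given as a description on these few reads.

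Annotated non-coding genes lie over the same stretches. *SPNCRNA.740* shares 361 nt with the end of *cdc15* and had the reads of *XUT1370*, 13 and 30 in the IP and 4 and 9 in the input. *SPNCRNA.1174* (*cwf20-antisense-1*) faces the first 613 nt of *mid1* in the table, with 11 and 28 reads in the IP and 7 and 7 in the input. Among protein-coding genes that overlap one of the 10, *paa1* lies opposite 962 nt of *cdc4*, which is 51.1% of that gene but none of its coding bases, and *nse3* lies opposite 144 nt of *myo2*. *SPAC926.02* shares 67 nt with *rlc1* on the same strand. Restricting the count to coding segments avoids these overlaps, and on these the log2 IP over input was 2.49 for *mid1* and 2.65 for *rlc1*, beside 2.61 and 2.73 over the whole gene.

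**Figure D4:**
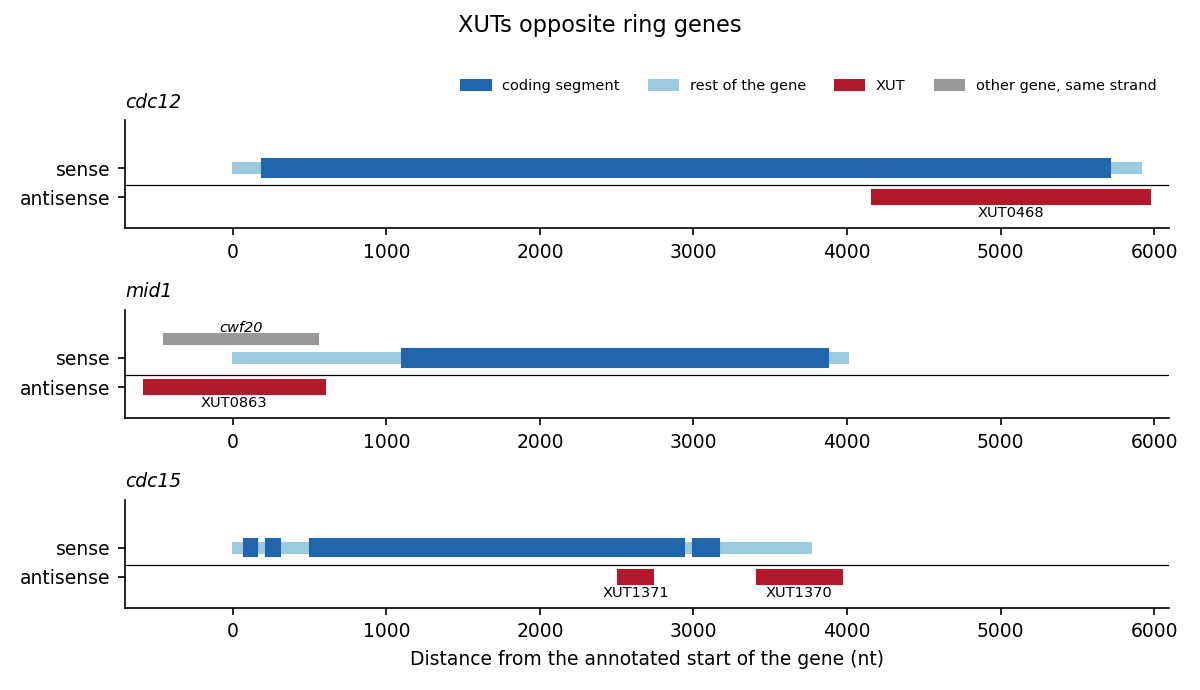
Position of the XUTs opposite *cdc12*, *mid1* and *cdc15*, as distance in nt from the annotated start of each gene, with the gene above the line and XUTs below it. *XUT0468* and *XUT1370* cover the ends of *cdc12* and *cdc15*, *XUT1371* lies within the coding sequence of *cdc15*, and *XUT0863* covers the first 598 nt of *mid1* as annotated in the table, where *cwf20* overlaps on the same strand.

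Genes that act with the 10 in the actin cytoskeleton showed both directions. Of the 7 genes of the Arp2/3 complex, which nucleates branched filaments in actin patches, 3 were called lower than the median protein-coding gene in IP over input and 0 higher (limma; 0 higher also at an unadjusted p under 0.05, and 0 by edgeR), beside 21.4% of protein-coding genes called lower and 10.4% called higher. These were *arc2* with a log2 ratio of -0.64, *arc1* with -0.47 and *arp2* with -0.36. The highest was *arc4* with 0.09, not past the threshold. Among 12 other genes of actin patches and filament turnover, 6 were called lower and 1 higher. The 6 were *end4* (-0.71) and *pan1* (-0.41), which act in endocytosis, the myosin I gene *myo1* (-0.70), the fimbrin gene *fim1* (-0.59), the capping protein gene *acp1* (-0.54) and *aip1* (-0.52), whose product acts with cofilin. The verprolin gene *vrp1* was higher, at 0.45. The medians of these lists were -0.18 and -0.34, beside -0.09 for all protein-coding genes.

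Most of the other formin and myosin genes, like *cdc12* and *myo2*, did not pass the threshold. Of 5 genes, *fus1*, the formin used in mating, was called higher at 0.55, and 0 were called lower (limma; 1 at an unadjusted p under 0.05, and 0 by edgeR), with the myosin V gene *myo52* lowest at -0.26. Of 12 other ring genes, 4 were called higher and 1 lower. Beside both lists, 10.4% of protein-coding genes were called higher and 21.4% lower. *rng3*, the chaperone for myosin II, was highest of all at 1.04, with densities of 0.0717 and 0.0756 in the IP and 0.00598 and 0.00670 in the input. *fic1* (0.66), *cyk3* (0.46) and *rga7* (0.45), which act in septum formation, followed, and *ain1*, the alpha-actinin gene, was lower at -0.53. The medians were -0.17 for the formins and myosins and 0.07 for the ring genes.

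All 56 genes of the wider lists were called higher in the IP on the deposited scale (limma). So were 4985 of 5043 protein-coding genes and 91.6% of all features, so that this count is close to the background. Relative to the median protein-coding gene, 12 were called lower and 11 higher, beside the same 21.4% and 10.4% of protein-coding genes. Without the trend in the spread, limma called 0 of them in either direction, with 10 lower and 7 higher at an unadjusted p under 0.05. Without any 1 of 3 libraries (IP replicate 1, IP replicate 2 or input replicate 2), 6 were called higher.

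**Figure D5:**
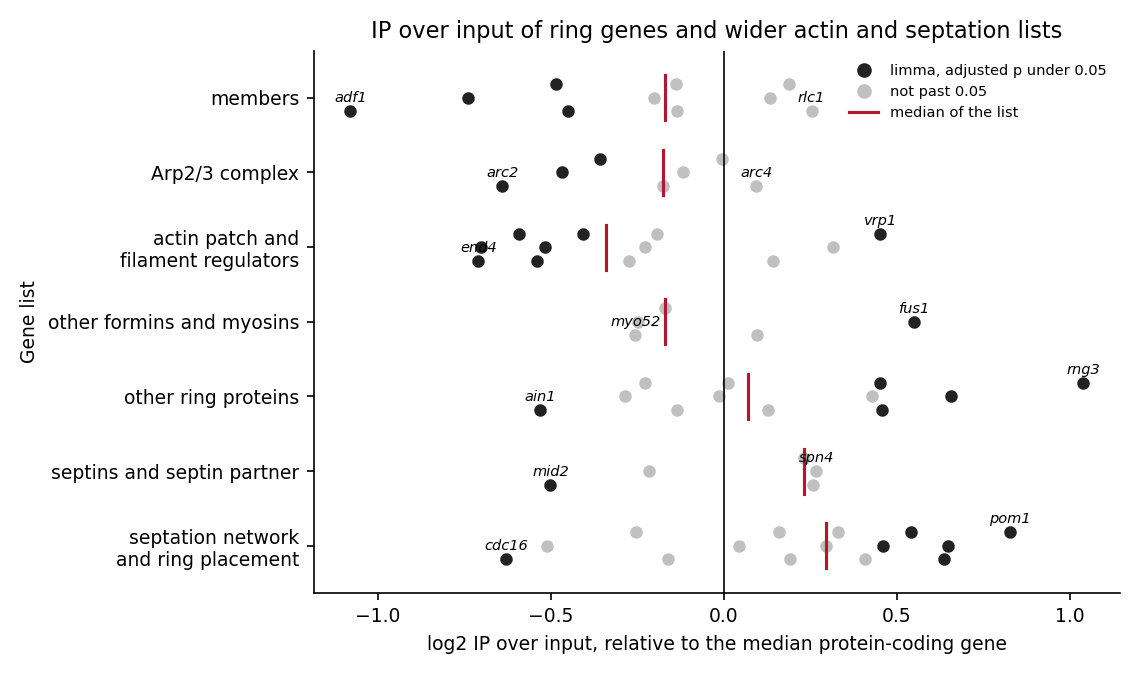
Log2 IP over input relative to the median protein-coding gene for the 10 genes and the wider lists, each point a gene, black where the limma adjusted p is under 0.05, with a red bar at the median of the list. *adf1* at -1.08 is the lowest point and *rng3* at 1.04 the highest.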

How the data were processed

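The members and gene lists were chosen with earlier results of these data known. Groups, replicate numbers and the pairing of IP and input came from the labels. The authors removed adapters, mapped reads with Bowtie to ASM294v2, kept unique alignments and deposited, for IP replicate 1, whole-number counts per feature. For the other libraries their deposited values are a signal, the reads multiplied by 1 factor per library, with a density signal per nt; the counting tool and the basis of the factor are not given in the sources used here. The pooled columns were not used. Dividing by the smallest step gave whole reads for 100.0% of the values (tolerance 0.01).

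IP and input were compared with limma 3.58.1 with trend (R 4.3.3) on log2(normalized reads + 0.318), which understates changes of features with few reads, for the 8651 of 9139 features that were above 0 in at least 2 libraries, with Benjamini-Hochberg adjustment over all of them at 0.05. edgeR 4.0.16 (quasi-likelihood, TMM) on the recovered reads called 2462 of 7097 features, and DESeq2 1.42.0 called 1269 of 8870. With the authors' factors, an alternative chosen after seeing the data, edgeR called 7042, all 10 members among them. The pairing is stated by the labels, and replicate differences of IP and input correlated with r = 0.152 over 4644 genes with at least 10 reads. Replicate r of log2 density was 0.983 (IP) and 0.981 (input). Named were all members, the XUTs and annotated genes that overlap them, and from each of 6 wider lists the highest, the lowest and each called gene; 56 of 57 listed names matched. Sequences came from RefSeq ASM294v3, where the coding segments of all 10 members have the coordinates of the table. The scripts were tested on simulated data. Alternatives were another pseudocount, filter, variance model, centre, test or counted part of the gene, a replicate block, and each library left out. Densities and XUTs were described with no test. The count of genes with an asXUT was repeated with RefSeq gene boundaries, also chosen after seeing the data.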

Additional observations from a re-analysis of the deposited data

How the results depend on the processing

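The direction of IP over input depended on the scaling, and edgeR with TMM and DESeq2 with its size factors called 0 of the 10 genes higher (0 also at an unadjusted p under 0.05). They gave, in this order, log2 ratios of -0.72 and -0.71 for *act1*, -0.47 and -0.45 for *cdc3*, -0.094 and -0.092 for *cdc4*, -0.43 and -0.42 for *cdc8*, -0.12 and -0.11 for *cdc12*, -0.18 and -0.17 for *myo2* and -1.07 and -1.05 for *adf1*. DESeq2 called *act1* and *adf1* lower, and edgeR these, *cdc3* and *cdc8*. The features called were 2462 and 1269 with these tools, against 8050 on the deposited scale. Relative to the median protein-coding gene, 2249 features were called, 4592 with a pseudocount 10 times larger, of which 16.3% were higher against 36.9% as reported, and 647 without the trend. The call of *cdc8* was lost with a pseudocount 10 times smaller (adjusted p = 0.0604) and with the mean as the centre (adjusted p = 0.0523, limma), and with 1 library left out the genes not called ranged over -0.20 to -0.073 for *cdc4*, -0.30 to 0.028 for *cdc12*, -0.26 to -0.14 for *myo2*, 0.062 to 0.32 for *cdc15*, 0.17 to 0.34 for *rlc1* and 0.089 to 0.18 for *mid1*. Without the trend, 0 of the 10 genes and 0 wider-list genes in either direction were called; 7 wider-list genes were called higher with the smaller pseudocount, and 6 to 10 with 1 library left out. The replicate block changed no call other than those of *cdc3*, *cdc8* and *adf1* relative to *act1*. The median share of *act1* was 8.83% by reads per gene, 5.88% over coding segments and 4.96% to 5.14% with 1 library left out. Depth limits the XUTs and short segments, which rest on 0 to 30 and 1 to 93 reads.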

Other observations

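The septins form a collar of filaments beside the ring, and 1 of 5 genes on their list passed the threshold. The genes *spn1*, *spn3* and *spn4* had log2 IP over input of 0.23, 0.26 and 0.27 relative to the median protein-coding gene and *spn2* had -0.22, none past the threshold (adjusted p of 0.265 to 0.405, limma). *mid2*, whose product stabilizes the septin ring, was called lower, at -0.50 (adjusted p = 0.0115, limma). Of these 5 genes, 0 were called higher, by edgeR also 0 and at an unadjusted p under 0.05 also 0, beside 10.4% of protein-coding genes.

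In the septation initiation network, the kinase cascade that triggers ring constriction, and among the genes that place the ring, 5 of 15 were called higher and 1 lower, beside 10.4% and 21.4% of protein-coding genes, with a median of 0.30 beside -0.09 for all protein-coding genes. *pom1*, the polarity kinase that keeps Mid1 from the cell ends, was highest at 0.83 (SE 0.102, adjusted p = 0.00024, limma), with densities of 0.140 and 0.129 in the IP, in normalized reads per nt, and 0.0150 and 0.0122 in the input. The kinase gene *sid2* (0.64) and *mob1* (0.65), which encodes its partner, were both higher, as were the phosphatase gene *clp1* (0.54) and *byr4* (0.46). Byr4 and Cdc16 together inhibit the network, and *cdc16* was called lower, at -0.63 (adjusted p = 0.0059, limma). As for the 10 genes, 0 of these calls were kept by limma without the trend, where 4 of the 15 were higher and 1 lower at an unadjusted p under 0.05.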
